A study of Mus musculus with 16 samples.

Results

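The 8 mature microRNAs described here have reported links to endoplasmic reticulum stress and were taken by identifier from the 853 mature microRNAs counted in small RNA libraries of splenic conventional type 1 dendritic cells (cDC1s). They are miR-140-3p (MIMAT0000152), miR-140-5p (MIMAT0000151), miR-204-5p (MIMAT0000237), miR-211-5p (MIMAT0000668), miR-7a-5p (MIMAT0000677), miR-33-5p (MIMAT0000667), miR-199a-5p (MIMAT0000229) and miR-214-3p (MIMAT0000661). cDC1s are the dendritic cells that specialise in taking up material from dying cells and presenting it to CD8 T cells. The study compared cDC1s sorted from C57BL6 mouse spleen in 4 groups of 4 libraries. These were Xbp1-deficient cells ("Xbp1 KO"), cells deficient for both Ire1a and Xbp1 ("Xbp1-Ire1 KO", here compound-deficient), and wild-type (WT) cells of each of the 2 mouse lines. The compound-deficient cells carry the loss of Xbp1 as well, so the 2 deficient groups share it and differ in Ire1a. The sources used here do not give the promoter that drives the deletion, the age of the mice, or whether replicates came from separate mice, and p-values therefore measure the spread between these libraries, which may be technical.

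The unfolded protein response senses misfolded protein in the endoplasmic reticulum through the membrane proteins IRE1, PERK and ATF6. Activated IRE1 removes an intron from Xbp1 mRNA, which yields the transcription factor XBP1s, and its nuclease domain also cuts other RNAs, among them some microRNA precursors. Dendritic cells of the cDC1 type are known for constitutive IRE1 activity, and loss of XBP1 in them is known to raise the cutting of other RNAs by IRE1. A microRNA acts through its seed, the bases near its 5′ end that pair with target messenger RNAs.

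A RefSeq mature sequence (GRCm38.p6) matched 7 of the 8 members, all except miR-140-5p. The sequences are shown because the seed groups the members by the targets they can pair with, and because near-identical members can share sequencing reads. Capitals mark the seed, bases 2 to 8 from the 5′ end.
miR-140-3p: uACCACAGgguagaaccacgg
miR-204-5p: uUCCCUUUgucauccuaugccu
miR-211-5p: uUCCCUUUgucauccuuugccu
miR-7a-5p: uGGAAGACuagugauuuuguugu
miR-33-5p: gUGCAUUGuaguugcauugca
miR-199a-5p: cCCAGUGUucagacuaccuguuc
miR-214-3p: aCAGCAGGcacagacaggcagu
The 7 sequences were 21 to 23 bases long and held 6 distinct seeds. miR-204-5p and miR-211-5p shared the seed UCCCUUU and differed at a single base, A17U, counted from the 5′ end with the miR-204-5p base first. miR-7a-5p shared its seed with 1 other mature microRNA of the reference, miR-7b-5p, from which it differed by A10U over its own length. The sources used here do not say how many mismatches the read alignment allowed, so the split of reads between miR-204-5p and miR-211-5p, and between miR-7a-5p and miR-7b-5p, is uncertain. Relatives of miR-199a-5p with no sequence in the reference could not be compared this way, so further such pairs may exist.

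The precursors lie at scattered positions of GRCm38. The miR-140 hairpin (Mir140) was at chr8:107551244-107551313 on the plus strand, inside Wwp2, a ubiquitin ligase gene, where it overlapped an annotated exon of at least 1 transcript. Both arms of this hairpin are members, and its sequence is shown with the 3p arm in capitals to show their common source.
Mir140 hairpin: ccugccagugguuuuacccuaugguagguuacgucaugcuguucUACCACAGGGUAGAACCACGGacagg
Mir33 (chr15:82198122-82198190) was in an intron of Srebf2, the gene of a regulator of cholesterol synthesis. Mir204 (chr19:22750605-22750672) and Mir211 (chr7:64205806-64205911) were in introns of Trpm3 and Trpm1, which encode related cation channels. miR-7a-5p had 2 source loci, Mir7-1 (chr13:58392779-58392886) in an intron of Hnrnpk and Mir7-2 (chr7:78888277-78888373) with no other annotated gene. Mir199a-2 (chr1:162217814-162217923) and Mir214 (chr1:162223368-162223477) were in exons of the same non-coding RNA gene, Dnm3os, which runs antisense to an intron of Dnm3. A second source of miR-199a-5p, Mir199a-1 (chr9:21496495-21496564), was antisense to an intron of Dnm2.

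Library depth ranged from 175165 to 1403393 microRNA counts, and the Xbp1-deficient libraries, at 783372 to 1403393, were deeper than 3 of the 4 compound-deficient libraries, at 175165 to 561610. Levels are given as CPM (counts scaled to a common library total) after trimmed-mean scaling of library sizes (TMM). A single count was worth 0.803 CPM in the deepest library and 5.28 CPM in the shallowest. A count of 0 allows up to 3 counts, that is 2.41 to 15.9 CPM. These limits cover counting error only, because reads without molecular identifiers can include copies made by amplification. The tables hold microRNAs only, so neither the deletions nor the identity of the sorted cells could be checked in them. The identifiers of the other microRNAs have no names in the reference tables used here, so marker microRNAs of other cell types and further microRNAs linked to the unfolded protein response were not analysed here. In bulk samples such as these, fewer cells that express a microRNA and less of it per cell cannot be told apart.

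Of the 8 members, only miR-140-3p was abundant. All 8 had at least 1 count in some library, but their 9592 counts made up 0.0817% of all microRNA counts, and 93.2% of them were miR-140-3p. The other 7 members never exceeded 32 counts or 32.5 CPM in any library. With at least 1 count taken as detection, miR-140-3p and miR-204-5p were detected in all 16 libraries. miR-33-5p was detected in 15, miR-140-5p and miR-7a-5p in 14 each, miR-211-5p in 13, miR-199a-5p in 6 and miR-214-3p in 3. At 10 counts or more, or after all libraries were thinned to the smallest total, only 1 member, miR-140-3p, was present in every library. After thinning, miR-204-5p was present in 13 libraries and miR-7a-5p in 8.

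The order of the levels in wild-type cells was read over the 8 wild-type libraries of both lines. miR-140-3p, a microRNA best known from cartilage, stood at 759 CPM ± 77.8 (SD, n = 8), rank 61 of 853. It was followed far below by miR-204-5p (13.7 CPM ± 8.93, rank 227), miR-7a-5p (13.6 ± 8.16, rank 228), miR-140-5p (12.5 ± 7.00, rank 236), miR-211-5p (10.5 ± 8.24, rank 243) and miR-33-5p (9.88 ± 7.01, rank 247). Neighbours among these 5 differed by less than 1 SD, so their order is not resolved, and the deposited log2 values swapped the places of miR-211-5p and miR-33-5p. miR-199a-5p (4.52 CPM ± 5.75, rank 309) and miR-214-3p (0.651 CPM ± 1.84, rank 528) were last.

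**Figure D1:**
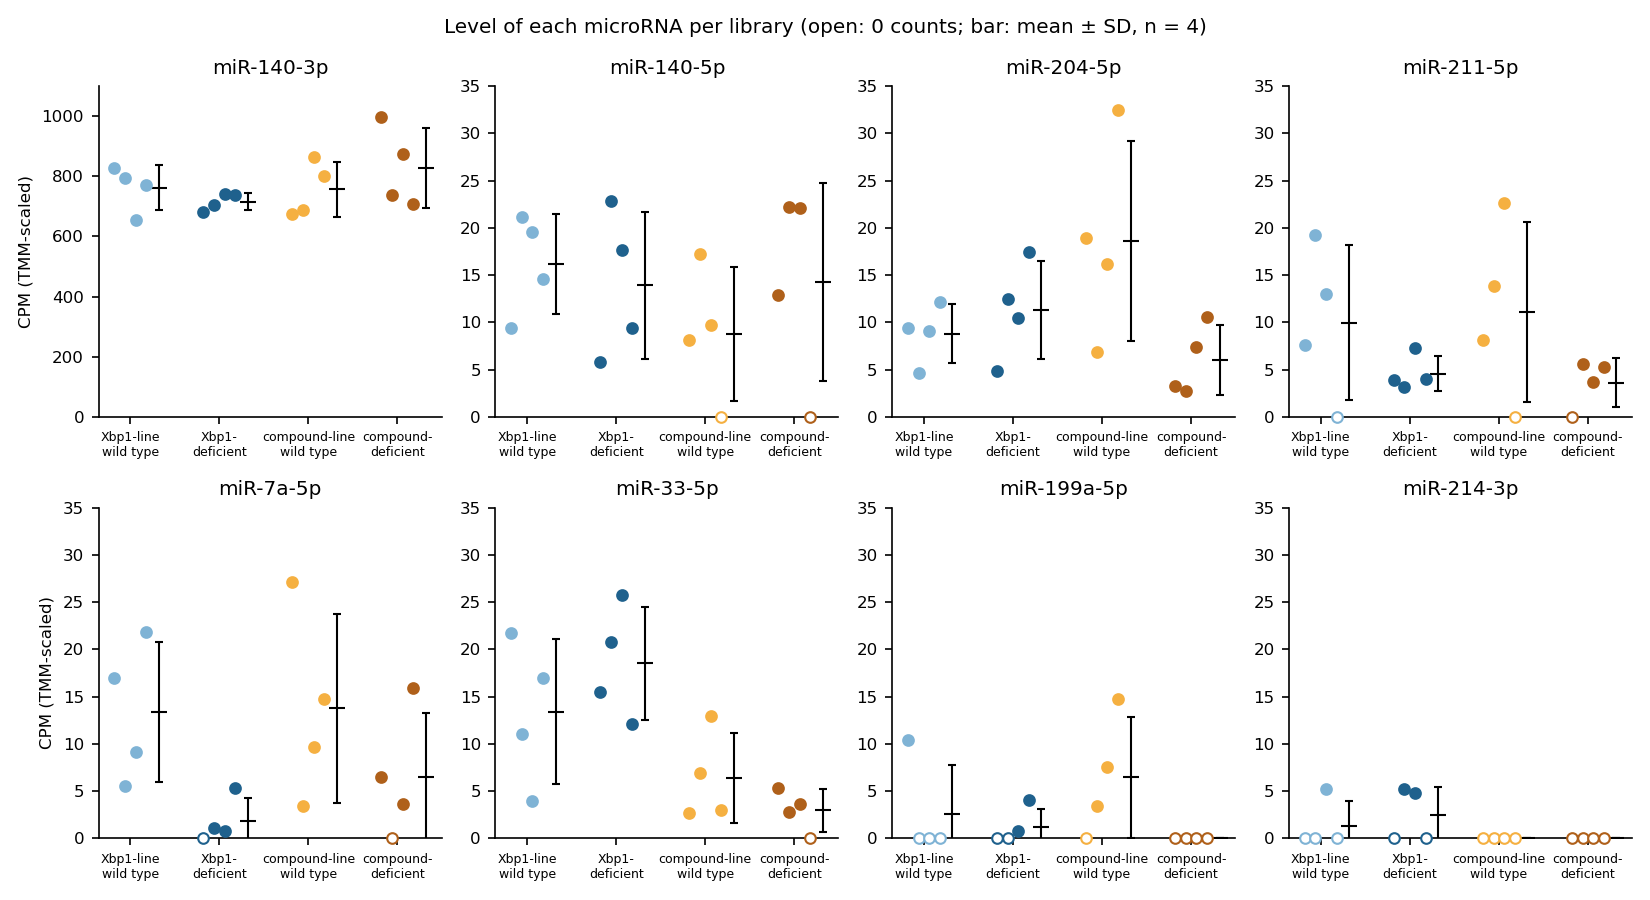
Level of each of the 8 microRNAs in every library, in TMM-scaled CPM on a linear axis (the axis of miR-140-3p is longer than that of the others), by group. Filled points are libraries with counts, open points are libraries at 0 counts, and bars are mean ± SD (n = 4). miR-140-3p lies between 655 and 997 CPM in all 16 libraries, the other 7 lie at or below 32.5 CPM, and miR-214-3p is at 0 in all 8 libraries of the compound line.

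Levels were compared between groups with edgeR's quasi-likelihood test, 2-sided, with p-values adjusted over the 255 microRNAs that passed a filter on low counts (13.0 CPM, or 10 counts in a library of median size, in at least 4 libraries). Of the 8 members, 6 passed, and miR-199a-5p and miR-214-3p did not. The 598 microRNAs not tested included these 2. The filter leans on the groups where a member was high. miR-211-5p passed through 4 wild-type libraries alone, 2 in each line, while miR-204-5p passed through 3 compound-line wild-type libraries and 1 Xbp1-deficient library. No Xbp1-deficient library of miR-7a-5p or miR-211-5p, and no compound-deficient library of miR-33-5p, miR-204-5p or miR-211-5p, reached 13.0 CPM. The counts of higher and lower members and their medians are therefore partly set by the filter and are given as descriptions only. No tested member passed an adjusted p of 0.05 in any of the 5 comparisons.

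Loss of Xbp1 was examined in the Xbp1 line. Of the 6 members, 0 were called by edgeR, against 2.35% of all 255 tested microRNAs. At an unadjusted p under 0.05 the count was 1 of 6, against 40 of 255. DESeq2 called 1 member, miR-7a-5p, and limma called 0. Relative to wild type, 2 members were higher and 4 lower, with a median log2 fold change of -0.15 beside -0.07 over all tested, although miR-140-3p turned from lower to higher with upper-quartile scaling. In this line miR-7a-5p and miR-211-5p reached the filter level through wild-type libraries alone, so these values are partly set by the filter. Deficient and wild-type libraries had separate ranges for 1 member, miR-7a-5p, and for 11.8% of all tested.

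Loss of Ire1a together with Xbp1 was examined in the compound line. Here too edgeR called 0 of 6 members, against 5.88% of all tested. Only miR-204-5p had an unadjusted p under 0.05, where 51 of 255 did. limma called 0 members, and DESeq2 called 0 of the 5 to which it gave an adjusted p. Relative to its wild type, 2 members were higher and 4 lower, with a median of -1.07 beside 0.04 over all tested, and upper-quartile scaling turned miR-140-3p from higher to lower. These values are partly set by the filter, whose level miR-204-5p and miR-211-5p reached in this line through wild-type libraries alone. The ranges of deficient and wild-type libraries overlapped for all 6, while they did not overlap for 9.8% of all tested.

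The 2 deficient groups were also compared with each other, which sets Ire1a-deficient against Ire1a-sufficient cells that all lack Xbp1 but come from different lines. edgeR called 0 of 6 members, against 7.45% of all tested, and only miR-33-5p had an unadjusted p under 0.05, where 44 of 255 did. DESeq2 gave an adjusted p to 1 of the 6 members only, miR-140-3p, which it did not call, and miR-33-5p had an unadjusted DESeq2 p of 0.00323. In the compound-deficient cells 3 members were higher and 3 lower, with upper-quartile scaling turning both miR-140 arms from higher to lower. The ranges did not overlap for 1 member, miR-33-5p, and for 11.8% of all tested. Of these 2 groups, miR-33-5p and miR-204-5p reached the filter level in Xbp1-deficient libraries alone, and miR-7a-5p in a compound-deficient library alone. These values are therefore partly set by the filter. Between the 2 wild types, edgeR called 0 of 6 members and 0.0% of all tested, with 0 members and 24 microRNAs at an unadjusted p under 0.05, and the ranges overlapped for all 6 members but not for 4.31% of all tested. The difference between the 2 lines' contrasts of deficient with wild-type cells was called for 0 of 6 members and for 0.0% of all tested, with 1 member and 26 microRNAs at an unadjusted p under 0.05. DESeq2 called 0 of 6 members between the wild types, and for the difference of the lines it gave an adjusted p to 1 member only, miR-140-3p, which it did not call.

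**Figure D2:**
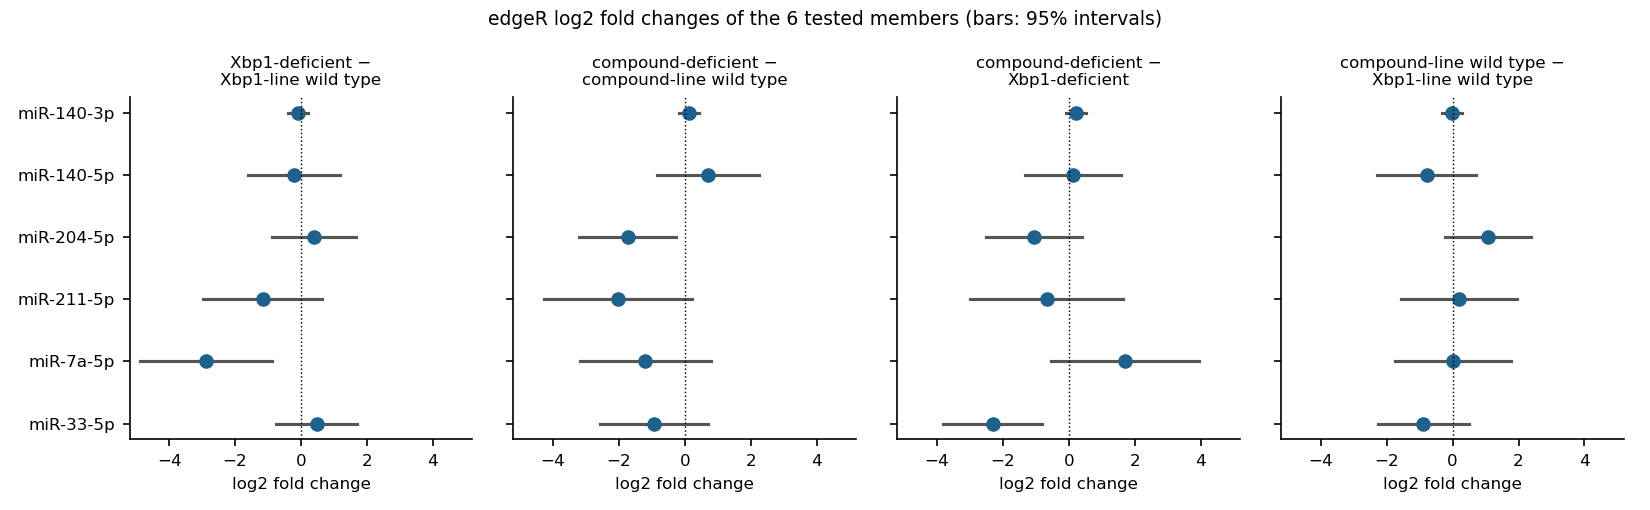
edgeR log2 fold changes of the 6 tested microRNAs (points) with 95% intervals (bars) in 4 comparisons between groups, on a common axis. Intervals that leave out 0 are those of miR-7a-5p in the Xbp1 line (-4.89 to -0.88), miR-204-5p in the compound line (-3.20 to -0.26) and miR-33-5p between the deficient groups (-3.80 to -0.80), none of which passed the adjusted threshold. In each of these comparisons the member reached the filter level only in the group where it was higher.

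miR-140-3p was nearly level across the genotypes. Its values were 829, 794, 655 and 770 CPM in wild-type cells of the Xbp1 line and 682, 703, 740 and 737 CPM in the Xbp1-deficient cells. In the compound line they were 675, 687, 865 and 801 CPM in the wild type and 997, 736, 872 and 708 CPM in the compound-deficient cells. All 4 ranges overlapped, and the highest library was 1.52 times the lowest. The log2 fold change was -0.09 (SE 0.14, 95% interval -0.39 to 0.21, edgeR adjusted p = 0.840) with loss of Xbp1, a sign that upper-quartile scaling turned (0.03). With loss of Ire1a and Xbp1 it was 0.13 (SE 0.14, interval -0.17 to 0.44, adjusted p = 0.713), which upper-quartile scaling also turned (-0.14). Both intervals thus lay within -0.39 to 0.44, while those of the other 5 tested members, which rested on far fewer counts, were wider.

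miR-140-5p, the other arm of the same hairpin, was present at a small share of the 3p arm. Its libraries ranged from 9.44 to 21.1 CPM in wild-type cells of the Xbp1 line and from 5.79 to 22.9 CPM in the Xbp1-deficient cells. They ranged from 0 to 17.3 CPM in wild-type cells of the compound line and from 0 to 22.2 CPM in the compound-deficient cells. All 4 ranges overlapped, and the 2 libraries at 0 counts were the shallowest of their groups, replicate 4 of each. The log2 fold change was -0.21 (SE 0.66, interval -1.59 to 1.18, edgeR adjusted p = 0.908) in the Xbp1 line and 0.71 (SE 0.74, interval -0.85 to 2.26, adjusted p = 0.707) in the compound line.

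The 5p arm made up 2.12% ± 0.793 (SD, n = 4) of the miR-140 counts in wild-type cells of the Xbp1 line and 1.90% ± 1.05 in the Xbp1-deficient cells. It made up 1.19% ± 1.00 in wild-type cells of the compound line and 1.67% ± 1.31 in the compound-deficient cells. Single libraries had wide 95% Wilson intervals, such as 1.49% to 5.67% around 2.93% in compound-deficient replicate 2. For the 0 of 134 counts in replicate 4 the Wilson interval reached 2.79%, beside 2.24% if a count of 0 allows 3 counts. In exact 2-sided permutation tests over libraries, p was 0.714 in the Xbp1 line, 0.457 in the compound line, 0.800 between deficient groups and 0.171 between wild types. Adjusted over these 4 comparisons, the smallest was 0.686, where 4 against 4 libraries allow a raw p of 0.0286 at the lowest. No difference in arm share was detectable, and a single comparison at that lowest p would not pass the adjustment either.

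**Figure D3:**
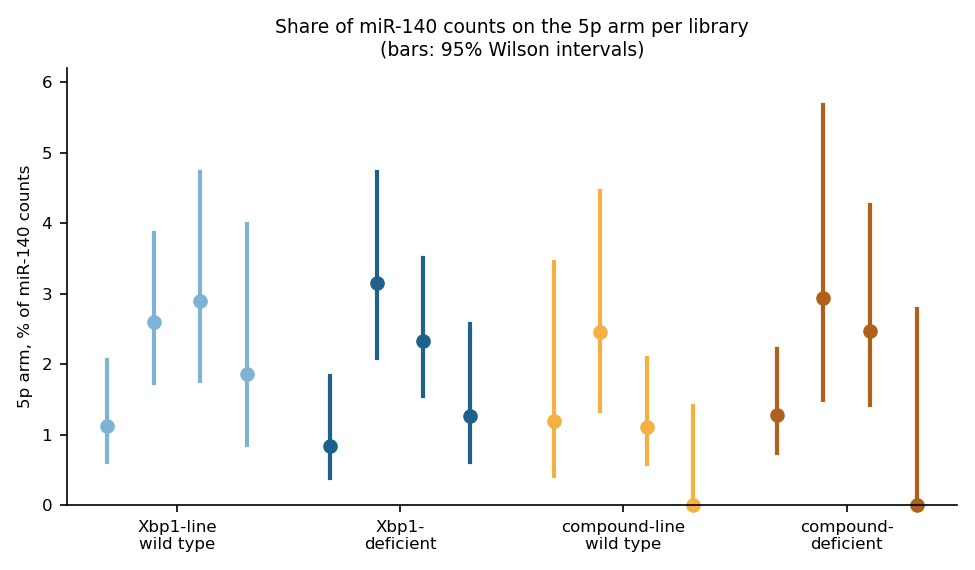
Share of miR-140 counts on the 5p arm in each library, in percent, by group, with 95% Wilson intervals as bars. Shares run from 0 to 3.15%, and the intervals of the 4 groups overlap.

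miR-204-5p and miR-211-5p, which carry the same seed, have both been linked to the PERK arm of the response. miR-204-5p stood at 9.44, 4.59, 9.11 and 12.1 CPM in wild-type cells of the Xbp1 line and at 4.83, 12.5, 10.4 and 17.4 CPM in the Xbp1-deficient cells. These ranges overlapped, and the log2 fold change was 0.38 (SE 0.61, interval -0.89 to 1.65, edgeR adjusted p = 0.840). In the compound line it stood at 19.0, 6.90, 16.1 and 32.5 CPM in the wild type and at 3.22, 2.78, 7.35 and 10.6 CPM in the deficient cells. The ranges overlapped through wild-type replicate 2 alone, which lay below 2 of the deficient libraries. The log2 fold change was -1.73 (SE 0.70, interval -3.20 to -0.26), with an edgeR adjusted p = 0.167 (unadjusted 0.0237). In this line miR-204-5p reached the filter level through wild-type libraries alone, so this value is partly set by the filter. The contrasts of the 2 lines differed by -2.11 (SE 0.93, interval -4.06 to -0.16), with an edgeR adjusted p = 0.421 (unadjusted 0.0354). The deficient libraries of the compound line held only 10 miR-204-5p counts in all, against 37 in its wild type.

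miR-211-5p stood at 7.55, 19.3, 13.0 and 0 CPM in wild-type cells of the Xbp1 line and at 3.86, 3.12, 7.23 and 4.02 CPM in the Xbp1-deficient cells. In the compound line it stood at 8.13, 13.8, 22.6 and 0 CPM in the wild type and at 0, 5.56, 3.67 and 5.28 CPM in the deficient cells. In each line 3 of 4 wild-type libraries lay above every deficient library and the remaining one was at 0, so the ranges overlapped. The margin in the Xbp1 line was 7.55 CPM (8 counts) against 7.23 CPM (9 counts). The wild-type libraries at 0 allow up to 7.27 CPM in the Xbp1 line and 8.87 CPM in the compound line. miR-211-5p passed the filter through wild-type libraries alone, so this pattern is partly set by the filter. The log2 fold change was -1.17 (SE 0.86, interval -2.98 to 0.64, edgeR adjusted p = 0.604) in the Xbp1 line and -2.03 (SE 1.07, interval -4.29 to 0.22, adjusted p = 0.342) in the compound line. Their difference was -0.87 (SE 1.38, adjusted p = 0.908).

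Because reads of 2 microRNAs that differ by 1 base can be interchanged, the 2 levels were also added, a step chosen after their values were seen and given without a test. The sum was 17.0, 23.9, 22.1 and 12.1 CPM in wild-type cells of the Xbp1 line and 8.69, 15.6, 17.7 and 21.4 CPM in the Xbp1-deficient cells. In the compound line it was 27.1, 20.7, 38.7 and 32.5 CPM in the wild type and 3.22, 8.33, 11.02 and 15.9 CPM in the deficient cells. The Xbp1-line ranges of the sum overlapped and the compound-line ranges did not, although those of each member alone overlapped. In the compound line 9.8% of single tested microRNAs did not overlap, which is no matching rate for a sum picked from the values. No compound-deficient library of either member reached the filter level, so the separation is partly set by how the members passed. The compound-line sums had means of 29.8 ± 7.68 and 9.61 ± 5.27 CPM (SD, n = 4) from 69 and 15 summed counts. The 2 wild-type libraries without miR-211-5p, Xbp1-line replicate 8 and compound-line replicate 4, were the shallowest of their groups.

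**Figure D4:**
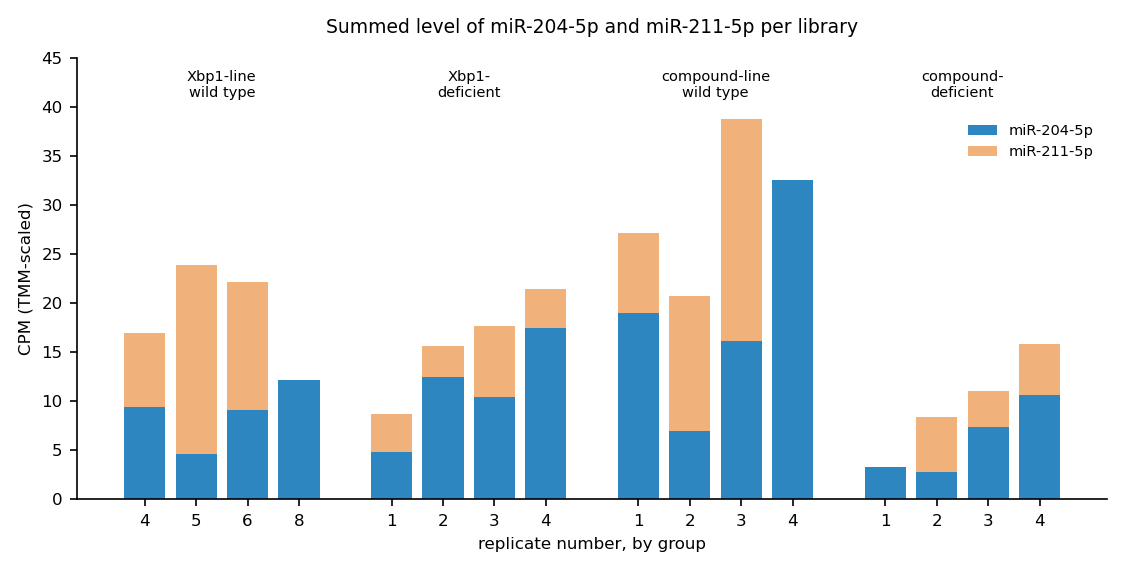
Stacked bars of miR-204-5p and miR-211-5p in each library, in TMM-scaled CPM from 0, by group and replicate number. The 4 compound-deficient sums (3.22 to 15.9 CPM) lie below the 4 of their wild type (20.7 to 38.7 CPM), while the sums of the Xbp1 line overlap. The sum was chosen after the values were seen, and its separation is partly set by the filter.

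miR-7a-5p, reported to be reduced by IRE1 activity in other cells, was low in the Xbp1-deficient cells. Whether IRE1 activity bears on its level here was not tested. miR-7a-5p stood at 17.0, 5.51, 9.11 and 21.8 CPM in wild-type cells of the Xbp1 line, from 18, 6, 7 and 9 counts. The Xbp1-deficient libraries stood at 0, 1.04, 0.803 and 5.36 CPM, from 0, 1, 1 and 4 counts. All 4 lay below the wild-type libraries, although the highest of them and the lowest wild-type library were close together. Separate ranges were seen for 11.8% of all tested microRNAs. In this line miR-7a-5p reached the filter level through wild-type libraries alone, so the separation is partly set by the filter. On the log2 scale the difference was -2.88 (SE 0.95, 95% interval -4.89 to -0.88), with an edgeR adjusted p = 0.113 (unadjusted 0.00714). DESeq2 gave an adjusted p of 0.0372, and over the 17 alternatives that tested it the adjusted p ranged from 0.0372 to 0.342 with DESeq2 the only call. With only the 2 compared groups it did not pass the filter. At the wild-type mean of 13.4 CPM, the 4 Xbp1-deficient libraries would have held 13.8, 12.8, 16.6 and 9.96 counts, where they held 0, 1, 1 and 4. Wild-type libraries missed that mean as well, with 18, 6, 7 and 9 counts where it gives 14.1, 14.5, 10.3 and 5.51. With library depth added to the model, a choice made after seeing the data, the value was -2.62 (adjusted p = 0.136).

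In the compound line miR-7a-5p stood at 27.1, 3.45, 9.68 and 14.8 CPM in the wild type and at 6.45, 0, 3.67 and 15.9 CPM in the deficient cells. The ranges overlapped, and the 15.9 CPM of compound-deficient replicate 4 came from 3 counts. The log2 fold change was -1.20 (SE 0.95, interval -3.19 to 0.79, edgeR adjusted p = 0.601). The contrasts of the 2 lines differed by 1.68 (SE 1.33, interval -1.11 to 4.48, adjusted p = 0.811), so no difference between the lines was detectable. The wild types of the 2 lines had means of 13.4 ± 7.39 and 13.8 ± 10.03 CPM (SD, n = 4).

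miR-33-5p, which represses the cholesterol exporter ABCA1 and is made from the gene of the sterol regulator SREBP2, stood lower in the compound-deficient than in the Xbp1-deficient cells. The Xbp1-deficient libraries stood at 15.4, 20.8, 25.7 and 12.1 CPM, from 16, 20, 32 and 9 counts. The compound-deficient libraries stood at 5.37, 2.78, 3.67 and 0 CPM, from 5, 1, 2 and 0 counts. The ranges did not overlap, as for 11.8% of all tested microRNAs. No compound-deficient library reached the filter level for miR-33-5p, so the separation is partly set by the filter. On the log2 scale the difference was -2.30 (SE 0.72, 95% interval -3.80 to -0.80), with an edgeR adjusted p = 0.0552 (unadjusted 0.00475). The adjusted p ranged from 0.0260 to 0.376 over the alternatives, and it passed the threshold with upper-quartile scaling (0.0260), with DESeq2's size factors in edgeR (0.0447) and without Xbp1-deficient replicate 4 (0.0447).

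Library depth moved with this member. Across the 16 libraries, which include both lines, Pearson's r between its log2 CPM and log2 depth was 0.81, the largest of the 6 tested members, whose others ran from -0.42 to 0.56. With depth added to the model, a choice made after seeing the data, the value was -1.69 (edgeR adjusted p = 0.376). At similar depth, compound-deficient replicate 1 had 5 counts of 978134 and Xbp1-deficient replicate 2 had 20 of 969371. Libraries of 1 group also differed at similar depth, with 23 counts of 1103001 in Xbp1-line wild-type replicate 4 and 12 of 1046657 in replicate 5. Such single pairs are descriptions only. Line and Ire1a loss cannot be told apart in a comparison of the 2 deficient groups. Set against the wild type of each line, the contrasts of the 2 lines differed by -1.41 (SE 0.97, interval -3.46 to 0.63, edgeR adjusted p = 0.728).

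Within the lines miR-33-5p differed less. Xbp1-line wild-type libraries stood at 21.7, 11.02, 3.904 and 17.0 CPM, a range that held 3 of the 4 Xbp1-deficient values above. The log2 difference with loss of Xbp1 was 0.48 (SE 0.59, interval -0.75 to 1.71, edgeR adjusted p = 0.777). Compound-line wild-type libraries stood at 2.71, 6.90, 12.9 and 2.96 CPM and overlapped the compound-deficient ones. Here the log2 fold change was -0.94 (SE 0.78, interval -2.57 to 0.70, adjusted p = 0.618). Between the wild types it was -0.89 (SE 0.65, interval -2.25 to 0.48, adjusted p = 0.766).

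**Figure D5:**
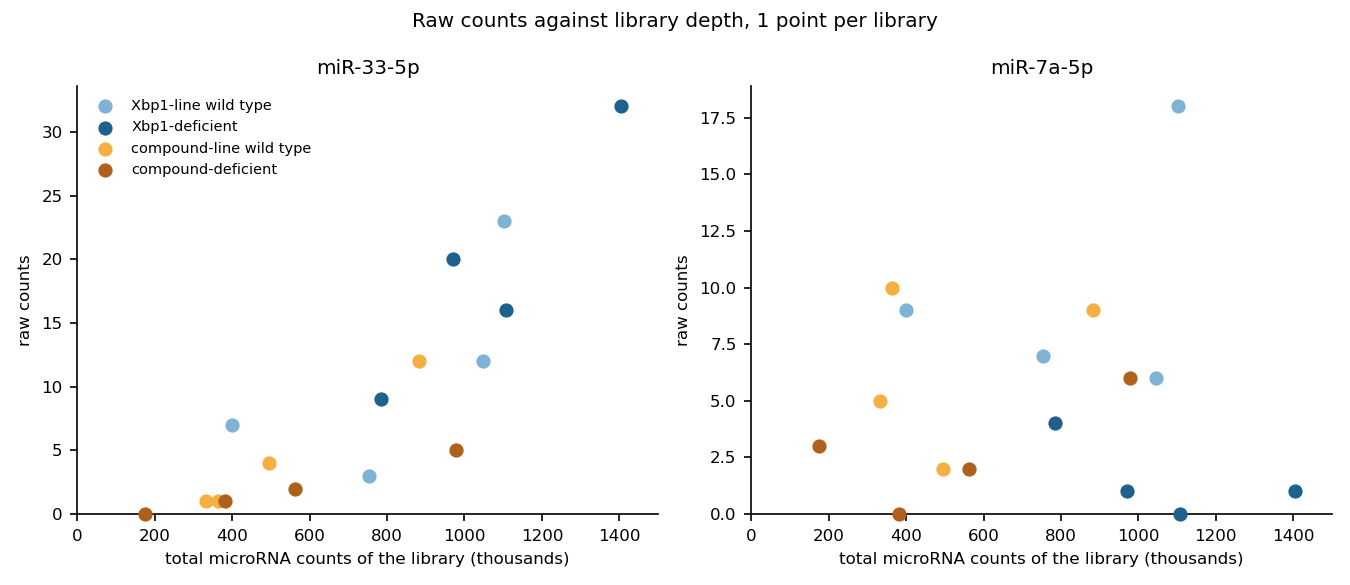
Raw counts of miR-33-5p (left) and miR-7a-5p (right) against the total microRNA counts of each library, 1 point per library, coloured by group. miR-33-5p runs from 0 counts in the shallowest library to 32 in the deepest, while the 4 Xbp1-deficient libraries hold 0 to 4 counts of miR-7a-5p at 783372 to 1403393 total counts.

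miR-199a-5p and miR-214-3p, whose precursors share Dnm3os, have been reported to target ATF6 and XBP1 respectively and are typical of mesenchymal cells. miR-199a-5p had 11 counts (10.4 CPM) in 1 Xbp1-line wild-type library, replicate 4, and 0 in the others. The Xbp1-deficient libraries had 0, 0, 1 and 3 counts. In the compound-line wild type it had 0, 2, 7 and 5 counts, up to 14.8 CPM, and it had 0 in all 4 compound-deficient libraries. Pooled over each group, this was 6.32 CPM in the wild type, from 14 counts and with 1 library also at 0. The 0 counts in the deficient group allow up to 1.48 CPM (3 counts over the group), or 2.74 CPM without replicate 1, its deepest library. These limits cover counting error only and are too tight, since the variance of miR-199a-5p within groups was 4.39 times that of counting noise. miR-214-3p had 4 counts in Xbp1-line wild-type replicate 6 and 5 and 6 counts in Xbp1-deficient replicates 2 and 3, and 0 in the other 13 libraries. Both were present in only 1 library, Xbp1-deficient replicate 3, and 8 of 16 libraries had neither. These microRNAs passed no filter, and no direction between groups is read for either.

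How far libraries of a group differed was set against counting noise, as the variance over that expected from the counts alone. The ratio was 1.73 for miR-204-5p, 1.96 for miR-33-5p, 2.42 for miR-211-5p, 2.50 for miR-140-5p and 3.08 for miR-7a-5p, each below the median of 3.13 over the 38 tested microRNAs with similar counts (80 to 170 in all). Those 38 include these members themselves. The ratio was 5.96 for miR-140-3p, beside a median of 5.89 over all 255. For miR-199a-5p and miR-214-3p, which were not tested, the ratio was 4.39 and 3.71. The common biological coefficient of variation over all tested microRNAs was 31.2%.

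No close correlation between tested members was seen across libraries, where the low counts of all but miR-140-3p limit any r. The highest Pearson r between log2 CPM values of any 2 tested members was 0.55, between miR-7a-5p and miR-204-5p, and the lowest was -0.50, between miR-140-5p and miR-204-5p, over 16 libraries that share depth and scaling. Among all tested microRNAs, those most like miR-33-5p had r values of 0.84, 0.80 and 0.76, and those most like miR-7a-5p 0.78, 0.69 and 0.68, again as descriptions over the same 16 libraries. For miR-140-3p the 3 highest were 0.66, 0.65 and 0.62. These neighbours are known here by identifier only, the closest to miR-33-5p being MIMAT0000154 and the closest to miR-7a-5p MIMAT0000211, at mean levels of 33658 and 2087 CPM.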

How the data were processed

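Small RNA was extracted from sorted splenic cDC1s with a miRNeasy Micro kit and sequenced from TruSeq small RNA libraries size selected on a Pippin Prep device, per the labels' protocols. Tools listed without roles in the submitters' processing notes are Bowtie 1.1.2, cutadapt 1.8.1, limma 3.42.2 and FastQC 0.11.3, beside the builds mm10 and GRCm38. The authors deposited raw counts for 853 mature microRNAs, and these were used for every main result. A second deposited table holds log2 values of 473 microRNAs, which from the values equal log2 of the count plus 0.5 with 1 constant per library, and these served as an alternative. The microRNA release, and how reads with several matches were counted, is not given in the sources used here.

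Members were taken by identifier, and groups and lines from the sample descriptions. The members, lists and tests were chosen with earlier results of these data known. The rule for named genes was all 8 members, further lists matched by name (partner arms, other microRNAs linked to the unfolded protein response, cell type markers) and the 3 microRNAs most like each tested member. The count table pairs no names with its identifiers, and 0 of the 853 had a name in the reference tables, so those lists were not analysed here. Counts were fitted with edgeR 4.0.16 in R 4.3.3 (TMM scaling, a filter by group, quasi-likelihood test, Benjamini-Hochberg adjustment over 255 microRNAs), with all 16 libraries and 4 group means in 1 model with 12 residual degrees of freedom. CPM values used the same scaling, and log2 CPM a prior count of 1. The code was tested on simulated counts. Alternatives were 3 other scalings, 2 other filters, DESeq2 1.42.0, limma 3.58.1 with voom or on the deposited log2 values, only the compared groups, the replicate number as a block, each library left out, and, chosen after seeing the data, depth as a covariate. Loci were read from GENCODE on GRCm38.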

Additional observations from a re-analysis of the deposited data

Results flagged for a closer look

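In 33 sets of 4 values, 1 per member and group and for the miR-140 arm share where they were not all equal, the gap between the extreme library and its nearest neighbour was set against the whole range. The ratio was above Dixon's critical value for 4 libraries in 2 of the 33, near the 1 in 20 that chance gives. In both it was 1.0, the value that any set with 3 libraries at 0 counts and 1 above must take. miR-199a-5p had 11 counts (10.4 CPM) in Xbp1-line wild-type replicate 4 and 0 in the other 3 libraries of that group, a ratio of 1.0. miR-214-3p had 4 counts (5.21 CPM) in Xbp1-line wild-type replicate 6 and 0 in the other 3, also a ratio of 1.0. Both are members that 10 or more of the 16 libraries lacked, so a single library with a few counts sets the group's mean.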

How the results depend on the processing

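Over the 30 log2 fold changes of members, 511 of 560 alternative values kept direction and side of the threshold, 11 kept direction but had no adjusted p from DESeq2, 34 changed sign, and 4 passed the threshold where the value reported did not. The cause of these shifts was not tested. The count of members called rose from 0 to 1 with DESeq2 in the Xbp1 line (miR-7a-5p) and, between the deficient groups, with DESeq2's size factors or upper-quartile scaling (1 each, miR-33-5p). Leaving out 1 library gave 0 to 1 there, the 1 being without Xbp1-deficient replicate 4. Members detected in every library fell from 2 to 1 at 10 counts and to 1 after thinning.

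Upper-quartile scaling shifted the median of all tested by 0.12 in the Xbp1 line, -0.28 in the compound line, -0.39 for the difference of the lines, -0.24 between the deficient groups and 0.15 between the wild types, and total counts by -0.10 and -0.12 in the first 2. With upper-quartile scaling miR-140-3p stood at 0.027, -0.14, -0.17, -0.027 and 0.14 in that order, all with the opposite sign. Between the wild types it also turned with total counts (0.061), the 10 CPM filter (0.0045), the deposited log2 values (0.015) and only the compared groups (0.011). Between the deficient groups miR-140-5p turned with upper-quartile scaling (-0.087), no filter (-0.058) and the deposited values (-0.18), and miR-211-5p with depth as a covariate (0.15). miR-7a-5p turned between the wild types without a filter (-0.080), with voom (-0.096) and on the deposited values (-0.024). Leaving out 1 library at a time, miR-140-5p ran from -0.54 to 0.12 in the Xbp1 line and from -0.26 to 0.39 between the deficient groups. miR-140-3p ran from -0.045 to 0.13 in the compound line and from -0.092 to 0.084 between the wild types. Also between the wild types, miR-211-5p ran from -0.40 to 0.75 and miR-7a-5p from -0.47 to 0.34. In the Xbp1 line miR-7a-5p ran from -4.02 without Xbp1-deficient replicate 4 to -2.43 without replicate 1.

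Over all tested microRNAs DESeq2 called 18, 24, 5, 32 and 4 in the 5 comparisons in the order above, where edgeR called 6, 15, 0, 19 and 0. Same-numbered libraries of the compound line and of the deficient groups deviated together little (correlations of -0.26 to 0.262). Weak correlations cannot exclude that samples were paired, and the main fit used no pairing. With only the compared groups in the fit, 1 to 3 members passed the filter. With the replicate block, 0 members were called in the compound line or between the deficient groups, with miR-33-5p at -2.41 (edgeR adjusted p = 0.0894), and 12 microRNAs in all were called between the deficient groups instead of 19. Depth limits all members but miR-140-3p, since 1 count weighs up to 5.28 CPM.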
